A study of Mus musculus with 9 samples.

Results

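The T cell receptor complex and the first steps of its signalling were examined in mouse spinal cord through 9 genes, chosen by symbol: Cd3d, Cd3e, Cd3g, Cd247, Cd4, Cd8a, Lck, Zap70 and Lat. The array annotation gave a probe set, the group of spots that reads one transcript, to 8 of the 9 genes and 12 probe sets in all, out of 8252 genes and 12488 probe sets. Lck, the kinase that starts the cascade, had no probe set under its symbol and is not analysed here. Of the 12 probe sets, 11 passed the filter on dim signals and were tested, and the second Cd3d probe set did not.

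All 9 samples were spinal cord total RNA, each on its own array, of mice of the B10.PL strain, with 3 samples in each group. The groups were mice with experimental autoimmune encephalomyelitis (EAE, a disease model of multiple sclerosis in which the immune system attacks the brain and cord) that received 200 ng of 1,25(OH)2D3, the hormone calcitriol (replicates 6, 7 and 8), mice with EAE given placebo (replicates 1, 5 and 10), and naive mice as controls (replicates 2, 3 and 4). Treated mice were sampled 6 h later, and the labels name no treatment, time, age or pooling for the naive mice. The title of calcitriol replicate 6 names 1,25(OH)2D2, whereas its description names the D3 form.

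The receptor of most T cells is a pair of antigen-binding chains held in the membrane by the CD3 chains and the zeta chain, which carry the tyrosine motifs that signal inward. When the receptor meets a peptide on an MHC molecule, the co-receptor CD4 or CD8 brings the kinase Lck to these motifs, the kinase ZAP70 docks on them, and ZAP70 phosphorylates the adaptor LAT, on which the downstream enzymes assemble. EAE is driven by myelin-specific CD4+ T cells that enter the cord with a larger number of myeloid cells. Healthy cord tissue holds few T cells.

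Arrays of naive cord were less alike than the others. The correlation of log2 signals over probe sets ran from 0.899 to 0.938 for pairs of calcitriol arrays, from 0.921 to 0.936 for placebo pairs and from 0.765 to 0.878 for naive pairs, and both lower naive pairs held replicate 2. The beta-actin 5′ minus 3′ log2 difference, a measure of RNA quality, ran from -0.83 to -0.52 on calcitriol arrays, from -1.11 to -0.42 on placebo arrays and from -0.25 to 0.12 on naive arrays, so every EAE array lay below every naive array. Its part in the differences given below was not tested. All 8 measured genes of a list of 10 neuron and glia markers were above the floor on at least 1 array of every group. On naive replicate 2, however, Gfap, Mbp and Nefl were listed at 0. The other naive arrays gave 953 and 1002, 2319 and 1772, and 745 and 784 units for these genes. Snap25 and Aqp4 gave 3380 and 3332 units on naive replicate 2, against 949 to 1335 and 979 to 1093 units on the other naive arrays. No T cell receptor chain gene of a list of 12 had a probe set under its symbol.

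The 3 CD3 chains, which neighbour each other in the RefSeq mouse annotation, were dim on every array. Signals are given in array units scaled to a common mean of 192.8, with a floor at 10% of it, 19.3 units, below which values have no order. Cd3d, the delta chain, gave -23.0, 10.8 and 26.9 units in calcitriol-treated EAE, 26.9, 36.7 and -4.50 units in placebo-treated EAE, and 19.0, 36.3 and 56.0 units in naive cord. It was above the floor on 5 of 9 arrays, and the second Cd3d probe set (161863_r_at) on 2 of 9, with -46.2, 0.57 and -0.10 units in calcitriol-treated EAE, 17.5, 13.4 and 30.0 units in placebo-treated EAE, and 2.38, 22.4 and -15.1 units in naive cord. Cd3g, the gamma chain, gave 49.6, 31.1 and 49.3 units in calcitriol-treated EAE, 62.6, 26.7 and 30.0 units in placebo-treated EAE, and 31.0, 46.7 and 34.5 units in naive cord. Groups overlapped in both, except that the second Cd3d probe set was lower on all calcitriol arrays than on all placebo arrays, with 5 of these 6 values under the floor.

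Cd3e, the epsilon chain, which pairs with both other chains, gave 112, 88.4 and 81.7 units in calcitriol-treated EAE, 111, 102 and 88.3 units in placebo-treated EAE, and 118, 144 and 95.2 units in naive cord. The brightest Cd3e array was a naive one. Cd247, the zeta chain, which carries most of the signalling motifs of the complex, was read by 2 probe sets. The first (102287_at) gave 90.6, 131 and 74.3 units in calcitriol-treated EAE, 156, 124 and 128 units in placebo-treated EAE, and 117, 116 and 206 units in naive cord. The second (102288_at) gave 112, 88.5 and 108 units in calcitriol-treated EAE, 77.7, 108 and 120.3 units in placebo-treated EAE, and 105, 128 and 124 units in naive cord. Groups overlapped in all 3 probe sets, and the Cd247 probe sets did not vary together over the 9 arrays (Pearson r = -0.10, a description).

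The co-receptors differed widely in probe set signal, which also depends on the probes. Cd4, the co-receptor of helper T cells, gave 995, 918 and 799 units in calcitriol-treated EAE, 815, 771 and 813 units in placebo-treated EAE, and 879, 933 and 974 units in naive cord. All placebo arrays lay below all naive arrays, and the calcitriol arrays overlapped with both. Cd8a, the alpha chain of the co-receptor of cytotoxic T cells, gave 75.3, 71.5 and 20.4 units in calcitriol-treated EAE, 39.2, 40.7 and 54.3 units in placebo-treated EAE, and 35.7, 34.6 and 38.1 units in naive cord. All placebo arrays lay above all naive arrays (39.2 units on the lowest placebo array against 38.1 units on the highest naive array), and the calcitriol arrays lay on both sides.

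All probe sets of the kinase and the adaptor read above the common mean of 192.8 units on every array, naive ones included. Not all of them were above background by the measure given below. Zap70 was read by 3 probe sets. The plain one (93661_at) gave 389, 306 and 399 units in calcitriol-treated EAE, 261, 298 and 332 units in placebo-treated EAE, and 424, 404 and 367 units in naive cord, so all placebo arrays lay below all naive arrays. The probe set 93662_s_at gave 240.2, 242 and 269 units in calcitriol-treated EAE, 237, 336 and 286 units in placebo-treated EAE, and 273, 215 and 262 units in naive cord. The brightest, 93663_r_at, gave 1818, 1778 and 1556 units in calcitriol-treated EAE, 1627, 1849 and 1864 units in placebo-treated EAE, and 1337, 1902 and 2292 units in naive cord, and both overlapped between groups. The suffixes _s_at and _r_at mark probe sets that can read more than 1 transcript or that miss some of the design rules. Over the 9 arrays the Zap70 probe sets correlated with each other at r = -0.18, -0.16 and -0.05, a description over arrays that share scaling and groups. Lat, the membrane adaptor, gave 674, 679 and 749 units in calcitriol-treated EAE, 627, 652 and 682 units in placebo-treated EAE, and 659, 639 and 681 units in naive cord, with overlap throughout.

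**Figure D1:**
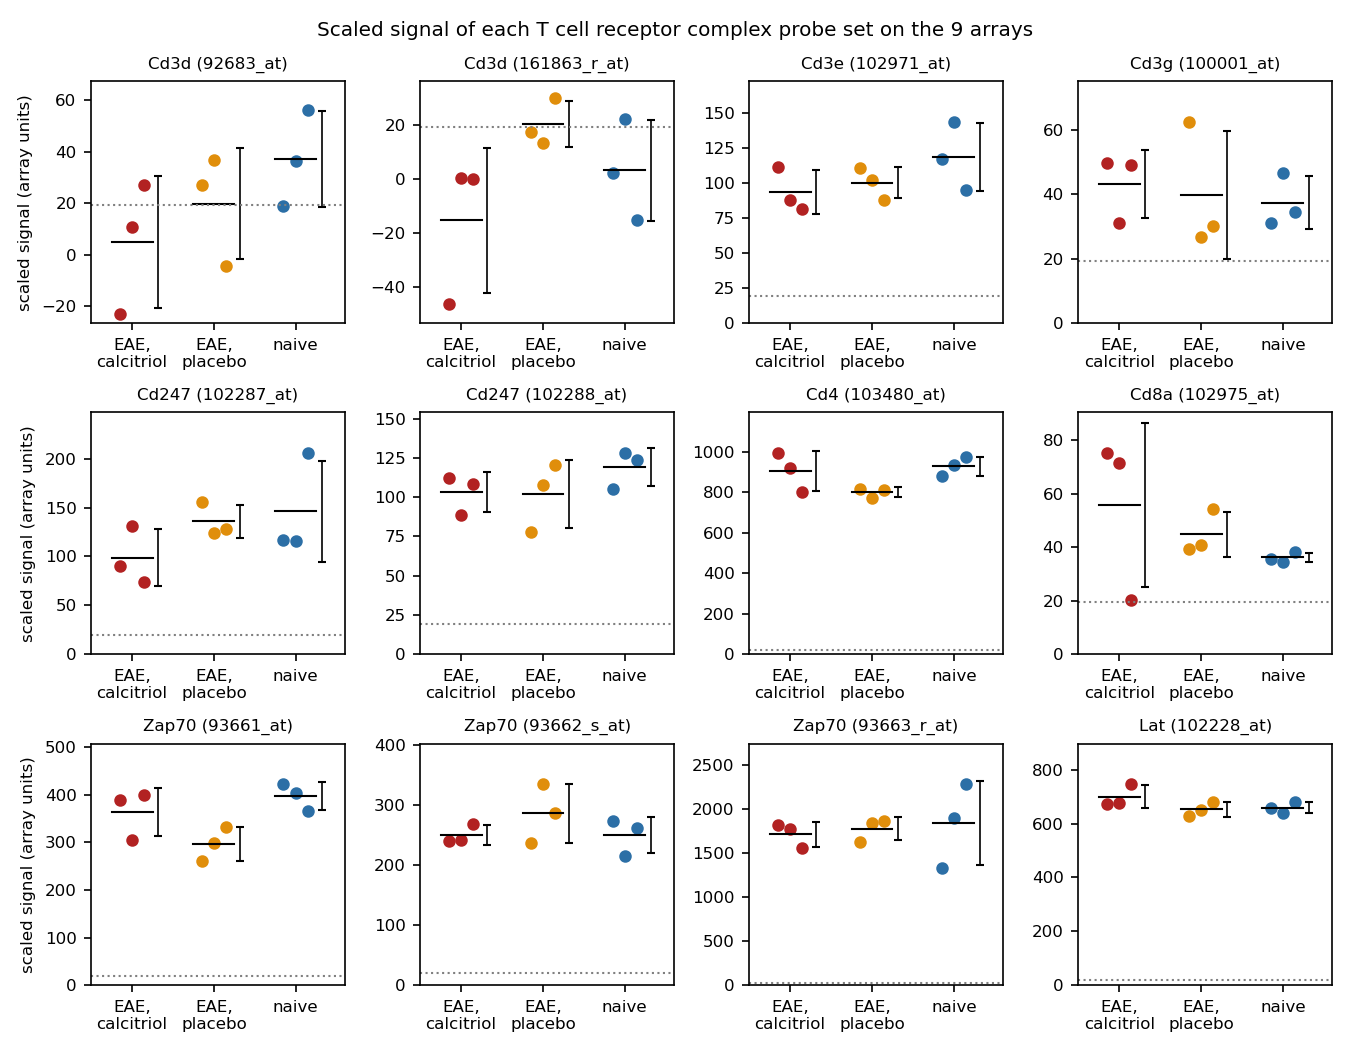
Scaled signal in array units (vertical axis, linear) of each of the 12 probe sets on the 9 arrays, by group (horizontal axis). Points are arrays, horizontal bars are group means, vertical bars are ± SD (n = 3) and the dotted line is the floor of 19.3 units. Groups overlap in every panel except placebo against naive for Cd4, Cd8a and Zap70 93661_at, and calcitriol against placebo for Cd3d 161863_r_at, where 5 of 6 values lie under the floor.

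To set these signals against background, 35 measured genes of tissues other than cord or blood cells (pancreas, liver, testis, pituitary, lens, skin and others) served as a list of genes with little reason to be transcribed in cord. Their 43 probe sets had a median of 84.6 to 114 units per array, and the 90th percentile lay between 420.2 and 559.8 units. Brightness also depends on the probe sequences, so a place in this list is no amount of transcript. Cd3d, Cd3g and Cd8a stayed below the list's median on 9 of 9 arrays, and Cd3e and both Cd247 probe sets lay near it, above 18 to 29 of the 43 probe sets. None of these genes passed the 90th percentile on any array. No CD3 or zeta chain probe set was thus above background on any array of any group by this measure. That percentile is a strict cut, as it lay above the common mean of 192.8 units on every array. The share of all tested probe sets above it was not counted. Falling short of it does not show that a transcript was absent.

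Cd4, Lat and Zap70 93663_r_at passed the 90th percentile on 9 of 9 arrays. Cd4 was above 41 to 43 of the 43 other-tissue probe sets, Lat above 39 to 41 and 93663_r_at above all 43. Some of the list had signals in the range of Cd4 and Lat or above it, though below 93663_r_at: Ctrb1, a pancreatic protease precursor, ranged from 832 to 1527 units, Crygd (162268_at), a lens crystallin, from 735 to 1082 units, and Lhb, a pituitary hormone subunit, from 636 to 821 units. Zap70 93661_at passed on 1 array, a naive one, and 93662_s_at on none. Against the 15 probe sets for Bacillus subtilis control genes instead, both passed on 9 of 9 arrays and Cd247 102287_at on 1 array. No label says whether those control transcripts were added to the samples.

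Lat and Cd4 varied little. The SD of log2 signal over all 9 arrays was 0.07 for Lat, and 0.0821% of tested probe sets varied less. It was 0.13 for Cd4, with 3.71% varying less, against a median of 0.37 over all 12177 tested probe sets. The tested other-tissue probe sets ran from 0.11 to 1.14. Spread was not compared among probe sets of like brightness. The highest Cd4 array was 1.29 times the lowest, and the highest Lat array 1.19 times. Zap70 93663_r_at, the brightest, had an SD of 0.22, with 19.3% varying less, and the other Zap70 probe sets 0.24 for 93661_at and 0.19 for 93662_s_at. The dim members ran from 0.23 for Cd247 102288_at and 0.25 for Cd3e to 0.58 for Cd8a. For each member above background on all arrays, the genes with the most similar signal over the 9 arrays, out of 8200 probe sets compared, were Htr1b (r = 0.96) and Mtmr10 (r = 0.93) for Cd4, Got2 (r = 0.96) and R3hcc1 (r = 0.96) for Zap70 93663_r_at, and Cdkn3 (r = 0.94) and Sgca (r = 0.93) for Lat. These are the highest of many correlations over 9 points that share scaling and groups, and are given as a description.

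**Figure D2:**
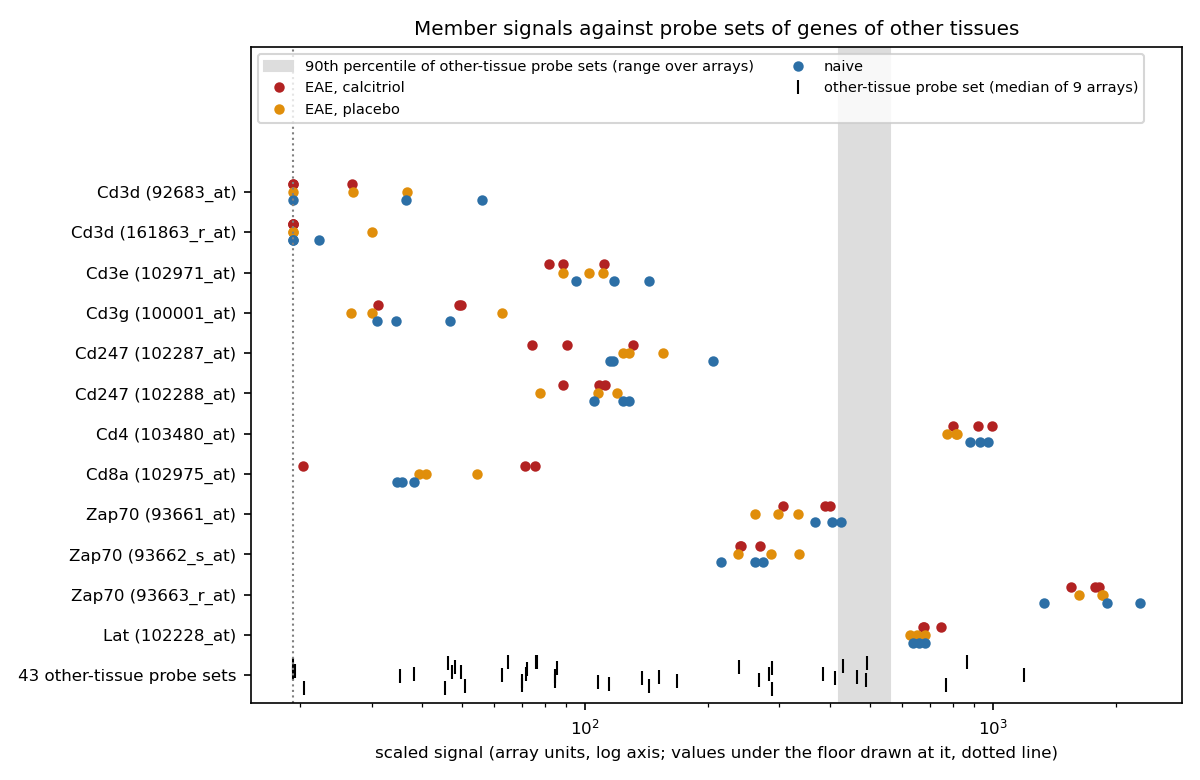
Scaled signal (horizontal axis, log scale, array units) of the 12 probe sets on 9 arrays, coloured by group, above the medians of 43 probe sets of other-tissue genes (ticks). The grey band is the range over arrays of that list's 90th percentile, 420.2 to 559.8 units, and only Cd4, Lat and Zap70 93663_r_at lie to its right on every array.

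Placebo-treated EAE against naive cord asks what the disease, together with the placebo treatment, changed. No member passed the test: 0 of 11 probe sets had an adjusted p under 0.05 (limma, Benjamini-Hochberg over all 12177 tested probe sets), where 0.936% of all probe sets did, and 1 of 11 had an unadjusted p under 0.05, where 9.33% of all did. That one was Zap70 93661_at, at -0.43 ± 0.16 log2 (SE, n = 3 per group), with means of 297 ± 35.4 units in placebo-treated EAE and 398 ± 29.0 units in naive cord (SD), an unadjusted limma p of 0.0216 and an adjusted p of 0.387. The other Zap70 probe sets stood at 0.19 ± 0.17 and -0.02 ± 0.20 log2 (SE). Cd4 differed by -0.21 ± 0.13 log2 and Cd8a by 0.29 ± 0.48 log2 (SE, limma adjusted p = 0.697 and 0.906). Over the members the median difference was -0.06 log2, beside -0.02 over all tested probe sets, and 3 were higher and 8 lower. Groups were without overlap in 3 of the 11, higher for Cd8a and lower for Cd4 and Zap70 93661_at, and in 14.5% of all tested probe sets.

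Intervals for the CD3 and zeta chains in placebo against naive all held 0. Cd3e stood at -0.23 ± 0.24 log2 (SE) with a 95% interval from -0.76 to 0.30, which ends at 1.23-fold of the naive level. Cd3g stood at 0.00 ± 0.40 log2 (SE, interval -0.88 to 0.89) and Cd3d at -0.35 ± 0.44 log2 (SE, interval -1.33 to 0.63). The Cd247 probe sets stood at -0.06 ± 0.30 and -0.24 ± 0.23 log2 (SE). Lat, at -0.01 ± 0.11 log2 (SE), had an interval from -0.27 to 0.24. For 10 of 11 members the interval ended below a 2-fold rise, as it did for 73.5% of all tested probe sets, and Cd8a, reaching 1.36 log2, was the exception. These are bounds on the probe set signal, and how much of that signal came from the named transcript was not tested. In whole tissue, fewer T cells and less RNA per T cell cannot be told apart.

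Calcitriol against placebo in EAE asks what the hormone changed within 6 h. No member passed limma's test (0 of 11, where 0% of all tested probe sets passed, and 0 of 11 at an unadjusted p under 0.05, where 2.58% of all did). Zap70 93661_at had the lowest p, at 0.29 ± 0.16 log2 (SE, limma adjusted p = 1). Its means were 365 ± 50.9 units with calcitriol and 297 ± 35.4 units with placebo (SD, n = 3 each). Cd247 102287_at stood at -0.50 ± 0.30 log2 (SE) while its other probe set stood at 0.03 ± 0.23 log2 (SE). Cd4 stood at 0.17 ± 0.13 log2 (SE, interval -0.12 to 0.46), Cd3e at -0.10 ± 0.24 log2, Cd3d at -0.31 ± 0.44 log2, Cd3g at 0.20 ± 0.40 log2, Cd8a at 0.11 ± 0.48 log2 and Lat at 0.10 ± 0.11 log2 (all SE). The groups overlapped in each of the 11 tested members, and were apart in 9.99% of all tested probe sets. The median over members was 0.03 log2, beside 0.00 over all tested probe sets. For 7 of 11 members the interval lay within a 2-fold change in either direction, as for 61% of all probe sets. Those of Cd3d, Cd3g, Cd247 102287_at and Cd8a reached past it.

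Calcitriol-treated EAE against naive cord shares its arrays with both comparisons above. Again 0 of 11 members passed limma's test, where 2% of all tested probe sets did, and 0 of 11 had an unadjusted p under 0.05, where 11.9% of all did. The lowest unadjusted p, 0.0923 (limma adjusted p = 0.52), was that of Cd247 102287_at at -0.55 ± 0.30 log2 (SE), with means of 98.7 ± 29.4 units in calcitriol-treated EAE and 146 ± 52.0 units in naive cord (SD, n = 3 each). Cd3d stood at -0.66 ± 0.44 log2, Cd3e at -0.33 ± 0.24 log2, Cd3g at 0.20 ± 0.40 log2, Cd4 at -0.04 ± 0.13 log2, Cd8a at 0.41 ± 0.48 log2 and Lat at 0.09 ± 0.11 log2 (all SE). The 3 Zap70 probe sets stood at -0.13, 0.01 and -0.07 log2. The groups overlapped in each of the 11 tested members, and were apart in 16.1% of all tested probe sets, and the median over members was -0.07 log2, beside -0.02 over all. Without naive replicate 2, which was in both lower naive pairs, no member passed in any comparison either. Cd3d then stood at -1.07 log2 (limma adjusted p = 0.239) and Zap70 93661_at in placebo against naive at -0.38 log2 (limma adjusted p = 0.385).

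**Figure D3:**
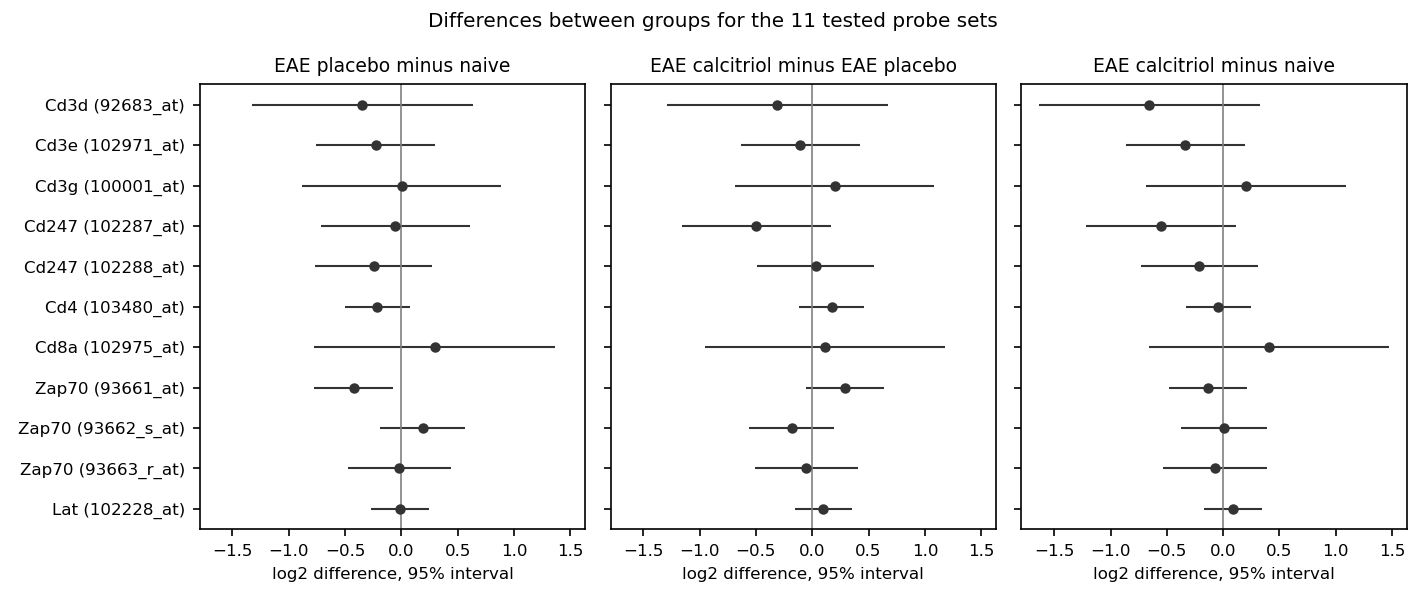
Log2 difference (horizontal axis) with its 95% interval for the 11 tested probe sets in 3 comparisons, 1 per panel. Every interval includes 0 except that of Zap70 93661_at in placebo against naive (-0.77 to -0.08), which did not pass after adjustment.

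Other genes of the pathway were taken from lists written for this report, with 1 probe set per gene. Of 25 receptor-proximal enzymes and adaptors 19 were measured, and 0 of 19 passed limma's test in each of the 3 comparisons (at an unadjusted p under 0.05, 1 in placebo against naive, 0 in calcitriol against placebo and 4 in calcitriol against naive). Their medians were 0.18, 0.03 and 0.00 log2. Ptpn6, the phosphatase SHP-1 of blood cells, which dampens antigen receptor signals, gave 317, 261 and 373 units in calcitriol-treated EAE, 273, 363 and 304 units in placebo-treated EAE, and 166, 194 and 213 units in naive cord. All EAE arrays lay above all naive arrays, at 0.72 ± 0.18 log2 with calcitriol and 0.71 ± 0.18 log2 with placebo (SE, limma adjusted p = 0.103 and 0.165). Vav1, an exchange factor of blood cells, stood at 0.95 ± 0.53 log2 in placebo against naive (SE, limma adjusted p = 0.662). Its naive values were 84.1, 85.2 and 20.1 units, the last near the floor, and the groups overlapped. Sh2d1a, the adaptor SAP of T and NK cells, stood at -0.61 ± 0.28 log2 in calcitriol against placebo and -0.83 ± 0.28 log2 in calcitriol against naive (SE, limma adjusted p = 1 and 0.236). Fyn, the Src family kinase that T cells share with neurons and glia, stood at -0.15, 0.03 and -0.11 log2 in the 3 comparisons.

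Ptprc, the leukocyte phosphatase CD45 that keeps Lck active, was read by 3 probe sets. It belongs to the list of receptor-proximal genes above, where 101048_at stood for it. The count given for that list therefore leaves out 101298_g_at, which passed limma's test in calcitriol against naive. The probe set 101298_g_at gave 55.3, 40.4 and 71.1 units in calcitriol-treated EAE, 36.4, 36.7 and 40.7 units in placebo-treated EAE, and 6.34, -0.31 and -6.46 units in naive cord. All EAE arrays were above the floor and all naive arrays below it. On every array this probe set also lay below the median of the other-tissue probe sets (84.6 to 105 units on EAE arrays). By that measure it was not above background. With naive values set to the floor, its estimated difference was 1.49 ± 0.29 log2 in calcitriol against naive (SE, limma adjusted p = 0.0346). In placebo against naive it was 0.98 ± 0.29 log2 (SE, limma adjusted p = 0.255). The other Ptprc probe sets, 101048_at and 101297_at, stood at 1.10 ± 0.46 and 0.58 ± 0.36 log2 in calcitriol against naive (SE, limma adjusted p = 0.377 and 0.585). In calcitriol against placebo the difference of 101048_at was 0.80 ± 0.46 log2 (SE, limma adjusted p = 1).

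Of 16 downstream genes 10 were measured and 0 of 10 passed limma's test in each comparison (0, 0 and 1 at an unadjusted p under 0.05, in the same order), with medians of -0.19, 0.09 and 0.11 log2. Rasgrp1, the Ras activator of T cells, stood at 0.71 ± 0.50 log2 in placebo against naive and 1.14 ± 0.50 log2 in calcitriol against naive (SE, limma adjusted p = 0.736 and 0.402), with a listed 0 on naive replicate 2. Ppp3r1, the regulatory subunit of calcineurin, stood at -0.49 ± 0.29 and -0.51 ± 0.29 log2 in the same comparisons (SE, limma adjusted p = 0.692 and 0.555). Its naive signal was 1015 units on replicate 2 against 487 and 400 units on the other naive arrays. Bcl10, an adaptor on the path to NF-kappa B, stood at 0.78 ± 0.40 log2 and Nfatc2, a transcription factor released by calcineurin, at 0.27 ± 0.19 log2 in calcitriol against placebo (SE, limma adjusted p = 1 for both).

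All 13 costimulatory, inhibitory and co-receptor genes were measured, and 0 of 13 passed limma's test in each comparison (1, 0 and 0 at an unadjusted p under 0.05, in the same order), with medians of -0.20, -0.12 and -0.12 log2. Cd8b1, the beta chain that pairs with the product of Cd8a, gave 42.3, 64.8 and 74.3 units in calcitriol-treated EAE, 37.6, 67.7 and 45.0 units in placebo-treated EAE, and 76.8, 95.3 and 88.7 units in naive cord. Each EAE array was lower than each naive array, at -0.56 ± 0.32 log2 with calcitriol and -0.83 ± 0.32 log2 with placebo (SE, limma adjusted p = 0.556 and 0.422), whereas the Cd8a differences had the opposite sign. Both the Cd8b1 probe set (162410_s_at) and that of Cd8a lay below the median of the other-tissue probe sets on every array. Cd2, an adhesion receptor of T and NK cells, stood at -0.91 ± 0.47 log2 in placebo against naive (SE, limma adjusted p = 0.633). Its placebo values were 2.24, 63.1 and 50.7 units, the first under the floor. Lag3 and Pdcd1, inhibitory receptors of activated T cells, stood at 0.41 ± 0.21 and -0.36 ± 0.20 log2 in calcitriol against placebo (SE, limma adjusted p = 1 for both). Cd27, a costimulatory receptor, stood at -0.32 ± 0.22 log2 in calcitriol against naive (SE, limma adjusted p = 0.627).

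The same arrays gave changes in myeloid genes. Of 10 macrophage and microglia markers 1 rose in placebo against naive and 4 rose in calcitriol against naive (limma, adjusted p under 0.05). Of all tested probe sets 0.936% and 2% passed. The medians of the list were 0.55 and 0.73 log2. In calcitriol against placebo 0 of 10 passed (2 at an unadjusted p under 0.05, median 0.34 log2). Lyz2, the lysozyme of myeloid cells, did not exceed the floor in naive cord. With naive values set to the floor, its estimated rise against naive was 3.28 ± 0.46 log2 with placebo and 4.49 ± 0.46 log2 with calcitriol (SE, limma adjusted p = 0.0138 and 0.00198). Itgam (2.58 log2), Cd14 (1.04 log2) and Laptm5 (0.90 log2) also rose in calcitriol against naive (limma adjusted p = 0.0254, 0.024 and 0.0269). Against the other-tissue probe sets, all 4 genes that passed lay above the median on every EAE array. Cd14 and Laptm5 also exceeded the 90th percentile on every EAE array. Itgam (111 to 280 units) exceeded it on none, and Lyz2 on calcitriol replicates 6 and 8 alone (112 to 253 units with placebo). Of the 10 genes 8 were higher in placebo against naive and 9 in calcitriol against naive. Adgre1 (-0.68 log2) and Fcgr3 (-0.63 log2) were lower in the first. Cd68 (-1.02 log2) was lower in the second, with a listed 0 on calcitriol replicate 8. None of these lower values passed the threshold. The summed signal of the 10 genes was 3446 to 4378 units in calcitriol-treated EAE, 2957 to 3606 units in placebo-treated EAE and 2034 to 2059 units in naive cord. These sums were not tested. In the tests of single probe sets, none of the 11 members passed in placebo or calcitriol against naive. Of the 10 macrophage and microglia genes, 9 and 6 did not pass either.

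Cells other than T cells can also express members: NK cells use Cd247, Lck, Zap70 and Lat, and mast cells and platelets use Lat. Of 7 measured NK cell, 9 mast cell, 4 platelet, 6 B cell and 5 immature T cell markers, none passed limma's test at an adjusted p under 0.05 in any comparison. At an unadjusted p under 0.05 there were 0 NK cell, 2 mast cell, 0 platelet, 1 B cell and 0 immature T cell markers in placebo against naive, 0 of each in calcitriol against placebo, and 0, 1, 0, 1 and 0 in calcitriol against naive. Summed NK cell signals were 987 to 1326 units in calcitriol-treated EAE, 1246 to 1334 units in placebo-treated EAE and 1079 to 1791 units in naive cord, with no gene of the list at the floor throughout any group. Of the 8 cord markers 1 fell, Mog, a myelin surface protein, by 1.83 log2 in calcitriol against naive (limma adjusted p = 0.0158). None of the 35 other-tissue genes passed limma's test in any comparison (2, 1 and 1 at an unadjusted p under 0.05).

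**Figure D4:**
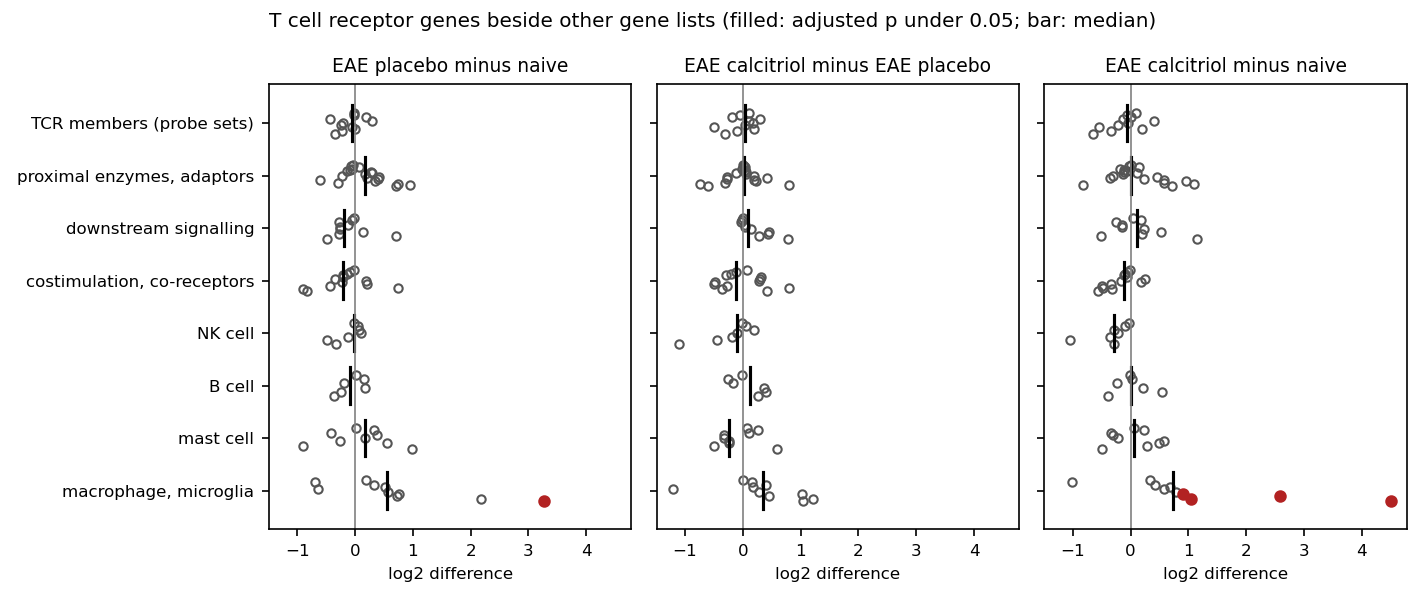
Log2 difference (horizontal axis) of each gene, or of each probe set for the members, in 3 comparisons, 1 per panel, for the members, the 3 pathway lists and the NK cell, B cell, mast cell and macrophage and microglia lists. Filled points have an adjusted p under 0.05, open points do not, and bars are medians. Of the lists drawn, filled points appear in the macrophage and microglia list alone (the cord list, which holds Mog, is not drawn), while the members lie between -0.66 and 0.41 log2.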

How the data were processed

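Spinal cord RNA was measured on 9 one-colour arrays, and the deposited table holds an intensity on a linear scale for each of 12488 probe sets. No header or label states the authors' scaling or summary method. For each array the trimmed mean (2% cut from each end, 66 control probe sets left out) was brought to 192.8, values under 10% of this were set to that floor, and log2 was taken. Probe sets above the floor on at least 3 arrays were tested, 12177 in all. One limma fit (version 3.58.1, R 4.3.3, intensity trend) over all 9 arrays gave the 3 comparisons, with Benjamini-Hochberg adjustment within each and a threshold of 0.05. The fit was tested on simulated data. Python 3.11.15 drew the plots. Replicate numbers are those of the titles. Nothing says that replicates are separate animals, so p-values measure the spread between these samples, which may be technical, and 3 arrays per group limit the precision.

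Gene symbols came from the platform annotation without updating: 10855 probe sets had 1 symbol, 396 several and 1237 none, and only the first were used. The members and lists were chosen with earlier results of these data known. Every member probe set is named, and of each pathway list the 2 genes with the lowest unadjusted p per comparison, with Ptprc and Fyn always. Cell type lists are given by counts and by the members that passed. Alternatives were the values as deposited, quantile normalization, floors of 5% and 20%, no filter, a filter on the mean, array weights, fits of the 2 groups alone, exact zeros as missing, and each array left out.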

Additional observations from a re-analysis of the deposited data

How the results depend on the processing

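No member passed an adjusted p of 0.05 in any of the 3 comparisons under any of the 18 alternatives. Of the 33 member differences 20 kept their sign in every alternative that could be computed and 13 changed it in at least 1. The lowest adjusted p of a member was 0.0695, for Cd3e in calcitriol against naive with array weights (-0.62 log2), and the next 0.0736, for Zap70 93661_at in placebo against naive. Counts over all probe sets moved more. With array weights they were 639 against 114 in placebo against naive and 1014 against 244 in calcitriol against naive, and with only the 2 groups fitted 61 and 118. The weights were 0.26, 4.38 and 0.41 for naive replicates 2, 3 and 4, and 0.61 to 1.60 on EAE arrays. Leaving out 1 array at a time gave 20 to 176, 75 to 392 and, in calcitriol against placebo, 0 to 1, where the main count was 0. In placebo against naive the count was 176, 46 and 49 without naive replicates 2, 3 and 4, 34 and 20 without placebo replicates 1 and 5, and 75 without calcitriol replicate 6. In calcitriol against naive it was 128 and 75 without calcitriol replicates 6 and 8, and 392 and 115 without naive replicates 2 and 3. The cause was not tested. With a floor of 20% and with the filter on the mean, Cd3d was not tested. No paired analysis was possible because the groups share no replicate numbers. Signals near the floor limit Cd3d, Cd3g and Cd8a, whose intervals were the widest.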
